A study of Homo sapiens with 3 samples.

Results

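The integrated stress response was followed through 10 genes in an irinotecan-resistant colorectal cancer line, LoVo-R8, and in the LoVo line it came from. The genes were ATF4, ATF3, DDIT3 (CHOP), TRIB3, CHAC1, DDIT4, ASNS, PPP1R15A, VLDLR and STC2. They were chosen by symbol from the array annotation, with their levels in LoVo-R8 with and without irinotecan already known, so all of their values below are descriptions. All 10 were measured, among 18417 genes with a value in the whole series.

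The series holds 3 cultures, each with a single Affymetrix Human Gene 1.0 ST array of its RNA. LoVo is an established human colorectal cancer cell line. LoVo-R8 was raised from it by passaging under irinotecan, a topoisomerase I inhibitor, from 0.1 μM up to 8 μM. The arrays are parental LoVo cells, LoVo-R8 cultured free of irinotecan (LoVo 8R-, here 8R-) and LoVo-R8 cultured in 8 μM irinotecan (LoVo 8R+, here 8R+). The labels of all 3 arrays share a text on irinotecan 24 h before RNA purification, and the sources do not say whether the parental cells received it. LoVo-R8 is 1 line selected once, so nothing here separates irinotecan resistance from other features of that line. The study's clustering legend names 8R- as the array used, whereas its gene table holds ratios of the array labelled 8R+. The names below are those of the sample labels, and whether they were exchanged was not tested. The paper places p53 downstream of the DNA damage by irinotecan. It also reports that irinotecan neither activated CHK1 nor changed the cell cycle in LoVo-R8. The measured p53 targets had medians against parental cells of 0.68 in 8R- and 0.11 in 8R+, and any bearing of this on the labels was not tested. Were the LoVo-R8 labels exchanged, every difference of 8R+ minus 8R- below would keep its size and take the opposite sign, so that the 4 genes given as lower and CHAC1 as lowest of all would be higher and highest, and the values of 8R- and 8R+ against parental cells would change places.

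The values are log2 levels that the authors made by robust multichip average (RMA). A difference of 1 is 2-fold, which was the limit for counting a gene as higher or lower. With 1 array per condition there is no replicate, no error and no test. As a yardstick, 95% of genes had a difference under 0.53 between 8R+ and 8R-. Median levels of the arrays lay between 6.94 and 6.95. Of 10 colon epithelium markers, 9 were above the array median on all arrays, and of 10 leukocyte, endothelial and fibroblast markers, 8 were below it on all arrays. In bulk RNA, fewer cells expressing a gene and less RNA per cell cannot be told apart.

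In the integrated stress response, kinases that sense amino acid shortage, misfolded protein, heme loss or viral RNA phosphorylate the translation factor eIF2α. General translation slows, while the mRNA of the transcription factor ATF4 is translated more. ATF4 then activates genes of amino acid supply together with its partners, among them CHOP, the product of DDIT3. PPP1R15A, also activated, encodes a phosphatase subunit that reverses the signal. ATF4 is controlled largely at translation, so its RNA and its activity need not move together.

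ATF4 acts with C/EBP proteins on a composite DNA element, and the promoter windows of the 10 genes were read for it as a description only. RefSeq promoter windows on GRCh38.p14, from 250 bases before a start to 50 bases from it, were found for all 10 genes (16 windows). Both strands were searched for the composite core TGATGNAA. Windows of CHAC1, ASNS and ATF3 hold it, and the 300 bases of each are shown 5′ to 3′ on the strand of the gene, with the match in capitals. The window of PPP1R15A is shown with its match to the cyclic AMP response element TGACGTCA, a site for ATF and CREB factors.
CHAC1: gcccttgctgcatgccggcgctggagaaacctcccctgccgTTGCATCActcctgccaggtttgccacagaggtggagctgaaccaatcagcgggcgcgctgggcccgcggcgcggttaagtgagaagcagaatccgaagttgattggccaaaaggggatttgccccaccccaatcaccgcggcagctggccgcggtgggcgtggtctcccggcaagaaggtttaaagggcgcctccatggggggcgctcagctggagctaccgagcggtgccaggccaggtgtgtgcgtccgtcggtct
ASNS: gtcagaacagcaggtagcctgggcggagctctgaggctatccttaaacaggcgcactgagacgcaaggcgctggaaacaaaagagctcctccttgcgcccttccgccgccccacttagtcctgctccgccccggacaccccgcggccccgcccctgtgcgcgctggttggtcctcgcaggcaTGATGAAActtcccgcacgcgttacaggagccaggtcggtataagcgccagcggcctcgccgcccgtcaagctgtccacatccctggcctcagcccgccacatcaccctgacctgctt
ATF3: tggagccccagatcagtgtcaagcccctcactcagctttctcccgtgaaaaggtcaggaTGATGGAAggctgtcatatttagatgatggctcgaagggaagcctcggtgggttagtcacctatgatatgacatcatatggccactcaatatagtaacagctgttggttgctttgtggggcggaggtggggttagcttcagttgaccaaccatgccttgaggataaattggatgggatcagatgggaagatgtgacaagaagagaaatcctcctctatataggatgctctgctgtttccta
PPP1R15A: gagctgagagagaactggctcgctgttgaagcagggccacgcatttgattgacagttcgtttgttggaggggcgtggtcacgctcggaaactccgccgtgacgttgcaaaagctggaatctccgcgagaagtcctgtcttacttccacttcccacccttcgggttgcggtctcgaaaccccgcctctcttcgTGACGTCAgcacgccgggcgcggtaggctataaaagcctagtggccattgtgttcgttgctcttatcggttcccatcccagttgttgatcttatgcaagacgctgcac

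The CHAC1 window lies at chr15:40953221-40953520 on the plus strand, and its match begins 209 bases before the start, as TTGCATCA, the core read from the other strand. The ASNS window shown lies at chr7:97872359-97872658 on the minus strand, with TGATGAAA beginning 68 bases before the start, and a second ASNS window holds no match. The ATF3 window at chr1:212565157-212565456 on the plus strand has TGATGGAA 191 bases before the start, and a second ATF3 window holds no match. The PPP1R15A window lies at chr19:48872171-48872470 on the plus strand, with its match 58 bases before the start. The composite core was found in 3.62% of 35116 promoter windows of all genes. Counted by gene, it was in 3.59% of 14239 measured genes with a window and in 3 of the 10 genes. The 10 are known genes of this response, so nothing is read from that share. The cyclic AMP response element was found in 1.85% of all windows, in 3.10% of these measured genes and in 1 of the 10. The endoplasmic reticulum stress element (CCAAT, 9 bases of any kind, then CCACG) was found in 0.0769% of all windows. By gene, it was in 0.133% of the measured genes and in 0 of the 10. DDIT3, TRIB3, DDIT4, ATF4, STC2 and VLDLR hold none of the 3 motifs in these windows, which says only that these letters are not there.

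Between the LoVo-R8 arrays, 4 of the 10 genes were at least 2-fold lower in 8R+ than in 8R- and 0 were higher. The lower ones were CHAC1 (3.23-fold), DDIT4 (2.99-fold), TRIB3 (2.95-fold) and DDIT3 (2.58-fold). The share of all genes this much lower was 0.114%, and the share this much higher was 0.527%. Since this contrast was in view when the genes were chosen, nothing is read from their share. PPP1R15A (1.97-fold lower) and ASNS (1.93-fold lower) lay just short of 2-fold. The median over the 10 genes was -0.96, and over all genes 0.00.

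**Figure D1:**
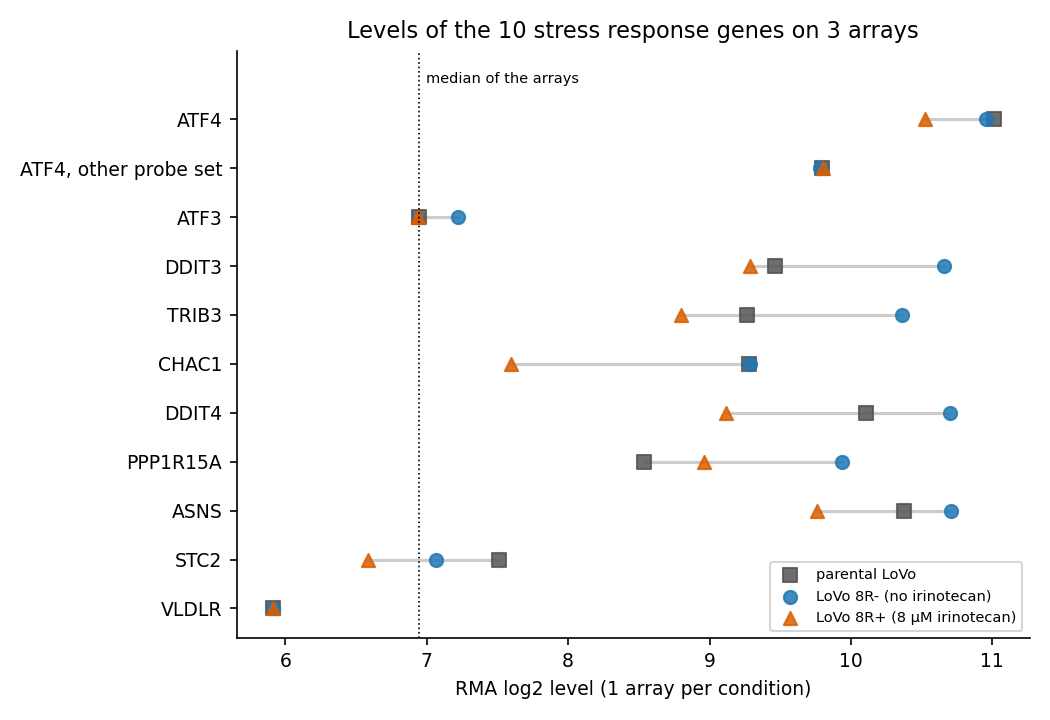
RMA log2 levels of the 10 genes (horizontal axis) in parental cells (squares), 8R- (circles) and 8R+ (triangles), 1 array each, to be compared within a row. 8R+ lies lowest for CHAC1 (7.60 against 9.28 and 9.29), DDIT4, TRIB3 and DDIT3, and the ATF4 probe sets differ.

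Among the transcription factors, DDIT3 had the widest range. CHOP, its product, is a bZIP factor that promotes death under prolonged stress. The level of DDIT3 was 9.47 in parental cells, 10.66 in 8R- and 9.29 in 8R+. 8R- stood apart, at 2.28-fold of parental cells, and 8R+ lay close to parental cells, with a difference of -0.18. In 8R+ minus 8R- the difference was -1.37, the 7th lowest of all genes.

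ATF4, the central activator of the response, is represented by 2 probe sets that disagree. On the brighter one its level was 11.01 in parental cells, 10.96 in 8R- and 10.53 in 8R+. On the other one it was 9.80, 9.78 and 9.80. The LoVo-R8 arrays thus differed by -0.43 on one and by 0.02 on the other, both within the range of 95% of genes, so no direction is given for ATF4 RNA.

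ATF3, a bZIP factor induced by ATF4 and by other stress signals, had levels of 6.95 in parental cells, 7.22 in 8R- and 6.94 in 8R+. Its 3 levels lay near the array median, and the difference between the LoVo-R8 arrays, -0.28, was within the range of 95% of genes.

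TRIB3 is a pseudokinase induced by ATF4 and CHOP that in turn restrains them. Its level was 9.26 in parental cells, 10.36 in 8R- and 8.80 in 8R+. 8R- was 2.14-fold above parental cells and 8R+ was 1.38-fold below them. The difference between the LoVo-R8 arrays was -1.56, the 3rd lowest of all genes.

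CHAC1, an enzyme that degrades glutathione, gave the lowest difference of all 18417 genes between the LoVo-R8 arrays. The level of CHAC1 was 9.28 in parental cells, 9.29 in 8R- and 7.60 in 8R+. Parental cells and 8R- were nearly equal (difference 0.01), and 8R+ alone was low, with differences of -1.69 from 8R- and -1.68 from parental cells. DDIT3 and TRIB3, by contrast, were more than 2-fold above their parental level in 8R-. Its promoter, shown above, holds the composite core.

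DDIT4 (REDD1), an inhibitor of mTORC1 that also answers to hypoxia and to p53, was the 2nd lowest gene in the same contrast. It had levels of 10.11 in parental cells, 10.70 in 8R- and 9.12 in 8R+. 8R- was 1.51-fold above parental cells, and 8R+ was 1.99-fold below it, just short of 2-fold (-0.99).

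PPP1R15A (GADD34) brings protein phosphatase 1 to eIF2α and so ends the translational block. Its level was 8.53 in parental cells, 9.93 in 8R- and 8.96 in 8R+. It was the only one of the 10 with 8R+ above parental cells, by 0.42, and 8R- was higher still, by 1.40. The difference between the LoVo-R8 arrays was -0.98, and with loess correction (-1.02) or repeated quantile normalization (-1.01) it passed 2-fold.

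ASNS, asparagine synthetase, is a classical ATF4 target, and its promoter window shown above holds the core 68 bases before that window's start site. It had levels of 10.38 in parental cells, 10.71 in 8R- and 9.76 in 8R+, so that 8R+ was below both other arrays. The differences from parental cells were 0.33 in 8R- and -0.62 in 8R+.

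STC2, a secreted glycoprotein, followed another order, with 7.51 in parental cells, 7.07 in 8R- and 6.58 in 8R+. Both LoVo-R8 arrays were below parental cells, by -0.44 and -0.93, and the 8R+ level lay below the array median. VLDLR, a lipoprotein receptor, had the same level, 5.91, on all arrays, which is below the array median. The median polish of RMA can give such ties with 3 arrays, and 26.1% of probe sets carry identical values on 2 or all 3 arrays, so an unchanged level is not read from VLDLR.

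Against parental cells, 3 of the 10 genes were at least 2-fold higher in 8R-, namely PPP1R15A (2.64-fold), DDIT3 and TRIB3, and 0 were lower. The background over all genes was 1.64% higher and 2.78% lower. In 8R+, 0 of the 10 were higher and 1, CHAC1 (3.21-fold), was lower, where 2.25% of all genes were higher and 2.3% lower. The medians over the 10 genes were 0.30 in 8R- and -0.47 in 8R+, against 0.00 over all genes in both. The 3 comparisons share arrays, so they are given side by side and not as repeats of each other.

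**Figure D2:**
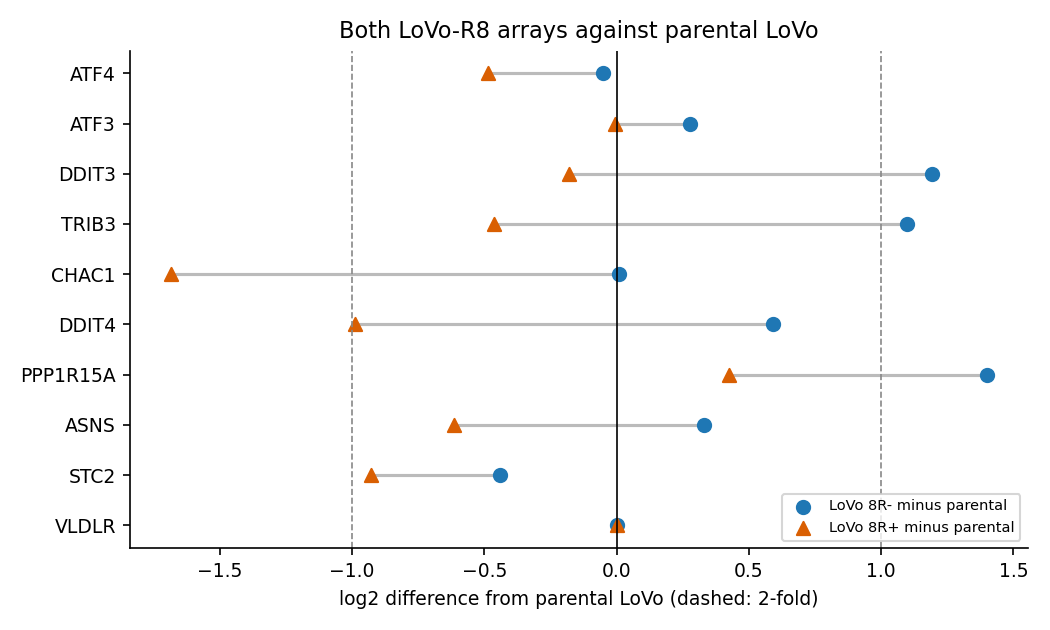
Log2 difference from parental cells of each of the 10 genes in 8R- (circles) and 8R+ (triangles), where dashed lines mark 2-fold. PPP1R15A, DDIT3 and TRIB3 pass 2-fold upward in 8R- (2.64-fold, 2.28-fold and 2.14-fold), and CHAC1 passes it downward in 8R+ (-1.68).

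In the order of the arrays, 6 of the 10 genes (ATF3, DDIT3, TRIB3, CHAC1, DDIT4 and ASNS) were highest in 8R-, intermediate in parental cells and lowest in 8R+. This order was found in 10.4% of all genes. For CHAC1 and ATF3 neighbouring arrays in the order differed by 0.01. ATF4, on its brighter probe set, and STC2 had the order parental cells, 8R-, 8R+, and PPP1R15A the order 8R-, 8R+, parental cells. 8R+ was the lowest array for 8 of the 10 genes and for 26.4% of all genes. This count takes ATF4 on its brighter probe set, and on the other one 8R+ was not the lowest.

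The genes nearest to DDIT3 in their 3 levels, each gene centred on its own mean, were SLFN5, LURAP1L, SNHG17, HKDC1 and SESN2, among 11543 genes that reached the array median and were not of the 10. Their Euclidean distances were 0.10 to 0.23. For TRIB3 the nearest were HKDC1, SESN2, SLFN5, ARHGAP29 and SNHG17, at 0.23 to 0.35. SESN2, a Sestrin family member, is known as an ATF4 target, and the paper describes it as regulated by p53. Its levels were 8.47, 9.34 and 8.12 in parental cells, 8R- and 8R+. With 3 arrays this likeness rests on 3 values per gene.

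Further targets of ATF4 and CHOP were taken in 4 lists, of amino acid synthesis, amino acid transport, tRNA charging and other targets. Of 48 measured genes in them, each counted once and none of them among the 10, 4 were at least 2-fold lower in 8R+ than in 8R- and 0 higher. Of all genes, 0.114% were lower and 0.527% higher by this much. At 1.5-fold, 20 of the 48 were lower and 1 higher, beside 1.08% and 2.87% of all genes. Their median was -0.51, and 40 lay below 0 and 5 above, where 48.4% of all genes lay below 0 and 39.4% above. Against parental cells, the median of the 48 was 0.04 in 8R- and -0.37 in 8R+. Like the 10 genes, these and the other lists below were chosen with earlier results of these data known. Nothing is therefore read from their shares.

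**Figure D3:**
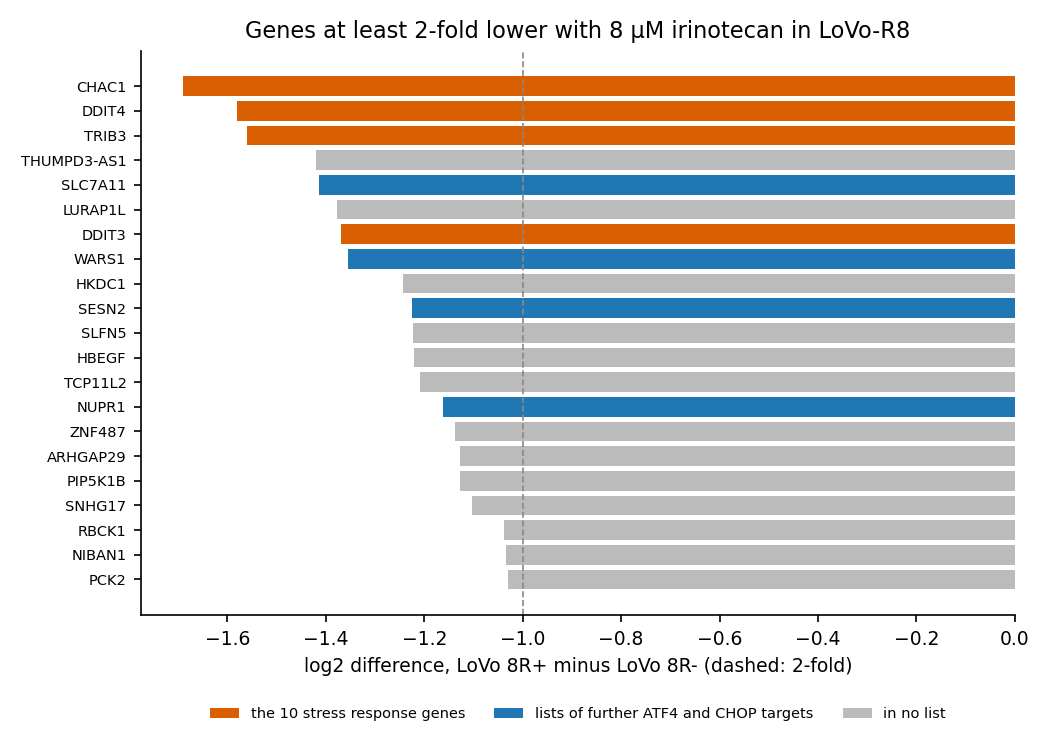
Log2 difference, 8R+ minus 8R-, of the 21 genes at least 2-fold lower with irinotecan, in order. CHAC1, DDIT4 and TRIB3 are the lowest (-1.69, -1.58 and -1.56), and 8 of the 21 belong to the 10 stress response genes (orange) or to the lists of further targets (blue).

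Of the 10 amino acid transporters, SLC7A11 was at least 2-fold lower in 8R+ than in 8R-. SLC7A11, the cystine importer that feeds glutathione synthesis, had levels of 10.79 in parental cells, 11.00 in 8R- and 9.58 in 8R+. SLC1A4 (-0.79), SLC38A2 (-0.72) and SLC1A5 (-0.69), which carry neutral amino acids, were next in the difference between the LoVo-R8 arrays. The list's median was -0.58, with 9 of 10 below 0 (48.4% of all genes).

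All 12 cytosolic aminoacyl-tRNA synthetases, which charge tRNAs with amino acids, were below 0 in the same contrast (48.4% of all genes). Their median was -0.49. WARS1, the tryptophan enzyme, was the 1 past 2-fold, with 11.65 in parental cells, 11.76 in 8R- and 10.40 in 8R+. GARS1 (-0.82), CARS1 (-0.72) and MARS1 (-0.70) followed.

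The enzymes of serine, glycine and proline synthesis were closer to 0, with a median of -0.31 over 10 measured genes and 0 past 2-fold. PHGDH, the first enzyme of serine synthesis, had a difference of -0.70, MTHFD2 of -0.66, PSAT1 of -0.56 and MTHFD1L of -0.36. Against parental cells, 1 gene of this list, ALDH1L2, was at least 2-fold lower on both LoVo-R8 arrays (-5.06 and -4.85). CBS and GPT2 were not analysed here.

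Of 16 other targets, SESN2 (-1.22) and NUPR1 (-1.16), a stress-induced chromatin protein, were at least 2-fold lower in 8R+ than in 8R-. VEGFA, an angiogenic growth factor, had -0.92 and XPOT, the tRNA exporter, -0.84. The median of the list was -0.61. BCL2L11 (BIM), a death-promoting BCL2 family member and CHOP target, had the highest difference of the list, 0.79, and in 8R- it was below parental cells by more than 2-fold (-1.02). FGF21 and INHBE, secreted factors, had differences of 0.00 from levels of 5.85 and 6.08 in 8R-, below the array median.

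The list for the signal upstream of ATF4 holds the eIF2α kinases, eIF2 and eIF2B subunits, phosphatase subunits, and OMA1 and DELE1, which relay mitochondrial stress. All 18 measured genes were within 2-fold in each of the 3 comparisons. In 8R+ against 8R- their differences ran from -0.26 (EIF2S2) to 0.32 (PPP1CA), with a median of 0.02. EIF2B5 and EIF2B3, subunits of the exchange factor that eIF2α phosphorylation blocks, had 0.32 and 0.31. Against parental cells the medians were -0.34 in 8R- and -0.28 in 8R+. EIF2AK3 (PERK), the kinase of the endoplasmic reticulum and named here after its values were seen, lay just short of 2-fold on both LoVo-R8 arrays (-0.98 and -0.99). RNA levels say nothing of the phosphorylation of eIF2α, which was not measured.

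Among 11 bZIP partners of ATF4 and CHOP, 9 were below 0 in 8R+ against 8R- (48.4% of all genes). Their median was -0.36, and 0 were past 2-fold. CEBPB had levels of 8.93 in parental cells, 9.71 in 8R- and 9.02 in 8R+, highest in 8R- as DDIT3 was. JDP2 had a difference of -0.63, CEBPG of -0.50 and JUN, on the other side, of 0.46.

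**Figure D4:**
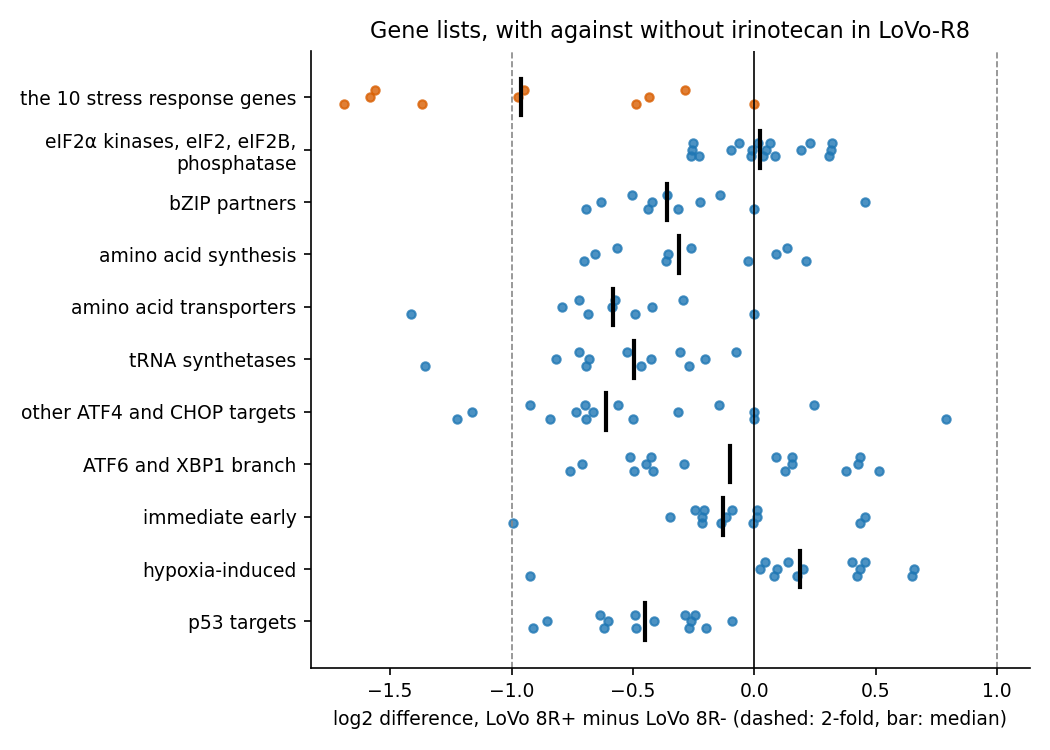
Log2 difference, 8R+ minus 8R-, of each measured gene of 11 lists, where a black bar is a list's median and dashed lines mark 2-fold. The 10 stress response genes have a median of -0.96, the upstream genes of 0.02 and the hypoxia list of 0.19.

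The other branches of the unfolded protein response are carried by ATF6 and XBP1. Of 16 genes in them, 0 were past 2-fold between the LoVo-R8 arrays, and the median was -0.10. DNAJB9 had -0.76, XBP1 -0.71, DNAJB11 0.52 and ERN1, the kinase that splices XBP1, -0.51. Against parental cells, 4 of the 16 were at least 2-fold lower in 8R- (2.78% of all genes) and 5 in 8R+ (2.3% of all genes), with 0 higher in both, and the medians were -0.74 and -0.67. The medians of the 10 stress response genes beside these were 0.30 and -0.47.

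Several of the 10 genes also answer to other signals, so lists for those are given beside them. DDIT4, VLDLR and STC2 are known to respond to hypoxia. Of 14 measured hypoxia-induced genes, 13 were above 0 in 8R+ against 8R- (39.4% of all genes), with a median of 0.19. VEGFA (-0.92), which is also among the targets above, was the 1 below. EGLN3 had 0.66, P4HA2 0.65 and P4HA1 0.46. Any part of hypoxia in the values of DDIT4, VLDLR and STC2 was not tested.

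DDIT4 and ATF3 are also known to respond to p53. All 14 measured p53 targets were below 0 in this contrast (48.4% of all genes), with a median of -0.45 and 0 past 2-fold. The largest differences were those of GADD45A (-0.91), MDM2 (-0.85), TP53INP1 (-0.64) and SESN1 (-0.62). Against parental cells, 5 of the 14 were at least 2-fold higher in 8R- (1.64% of all genes) and 1 in 8R+ (2.25% of all genes), with medians of 0.68 and 0.11. Their part in the values of DDIT4 and ATF3 was not tested.

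ATF3 and PPP1R15A are immediate early genes in many settings. Of 14 measured immediate early genes, 0 were past 2-fold between the LoVo-R8 arrays, and the median was -0.13. EGR1 was just short of it, with 8.70 in parental cells, 10.43 in 8R- and 9.43 in 8R+, and has the order of the arrays seen for PPP1R15A. JUN had 0.46, ZFP36 0.44 and FOS -0.35. Any part of such signals in the values of ATF3 and PPP1R15A was not tested.

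**Figure D5:**
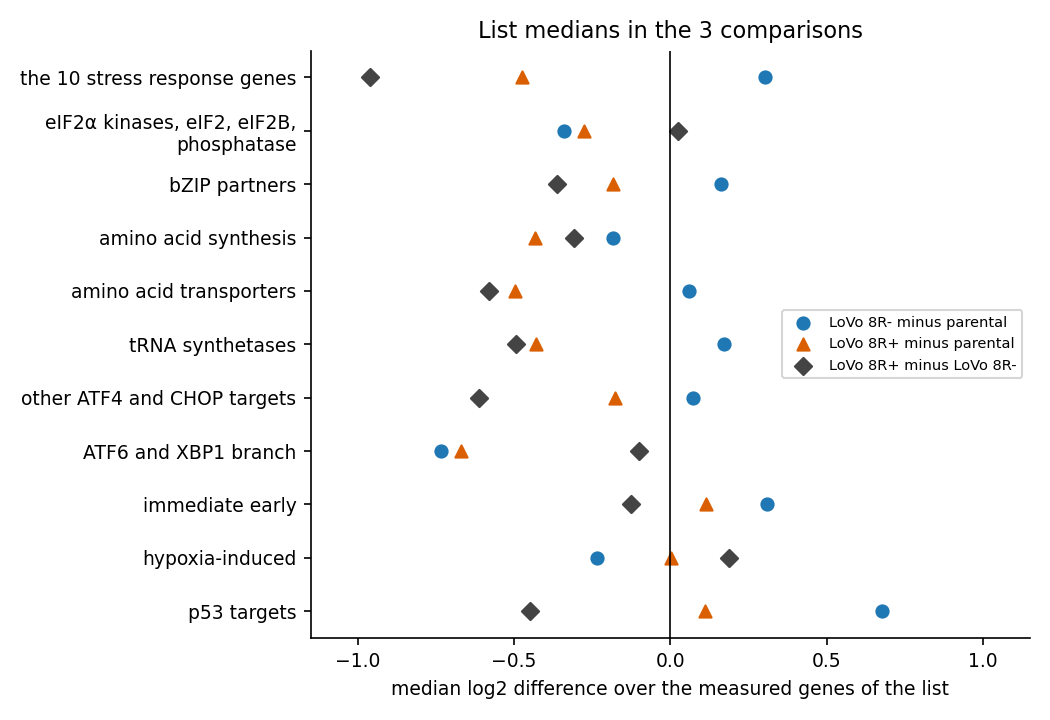
Median log2 difference of 11 gene lists in 8R- minus parental cells (circles), 8R+ minus parental cells (triangles) and 8R+ minus 8R- (diamonds). The 10 stress response genes lie at 0.30, -0.47 and -0.96, the p53 targets at 0.68, 0.11 and -0.45, and the ATF6 and XBP1 branch at -0.74, -0.67 and -0.10.

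The composite core was also looked for in the further targets. Of 35 of them with a promoter window, 13 (37.1%) hold it, against 3.59% of 14239 measured genes with a window. The lists were made of known ATF4 and CHOP targets, so nothing is read from this share. The 13 include 7 tRNA synthetase genes and 4 amino acid transporters. Their median difference between the LoVo-R8 arrays was -0.52, beside -0.51 for all 48 measured further targets. The 511 measured genes with the core had a median of -0.0150. Of the 18 genes with a window that were at least 2-fold lower in 8R+ than in 8R-, CHAC1 alone holds the core there.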

How the data were processed

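Values of 3 Affymetrix Human Gene 1.0 ST arrays were used, 1 per condition. Per probe set, the authors deposited a log2 level made by RMA (background correction, quantile normalization and median polish). Affymetrix Expression Console 1.1 is named in the submitters' processing notes, and the methods of the paper name R and Bioconductor. Median polish over 3 arrays can give a probe set equal values on several arrays, so a tie is not a measured absence of difference.

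The 33297 probe sets comprise 19460 that name 1 gene, 1754 with several genes and 12083 without a name here. The first kind gave 18417 genes, taking for each gene the probe set with the highest mean level. Log2 levels were subtracted and genes counted at 2-fold. Conditions have no replicates, so there are no tests, errors or p-values, and having 3 arrays limits the precision. The calculation was tested on simulated data. Python 3.11.15 with numpy 2.4.6, pandas 2.3.3, statsmodels 0.14.6 and matplotlib 3.10.9 was used.

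The 10 genes, the gene lists and the motifs were chosen with earlier results of these data known. The genes named were the 10, the 5 nearest to DDIT3 and to TRIB3, and from each list up to 4 with the largest difference between the LoVo-R8 arrays and any past 2-fold. ALDH1L2, EIF2AK3, BCL2L11, FGF21, INHBE and the genes of the closing paragraph were named after their values were seen. The lists share CEBPB, ATF5, VEGFA and JUN with one another. EGR2, CA9 and BTG2 of the lists were not analysed here. Alternatives were thresholds of 1.5-fold and 3-fold, median centring, loess (span 0.3, 3 iterations), repeated quantile normalization, means over probe sets, a filter at the array median and, added after the data were seen, the other ATF4 probe set.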

Additional observations from a re-analysis of the deposited data

How the results depend on the processing

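The 4 genes at least 2-fold lower in 8R+ than in 8R- stayed past 2-fold in that direction with median centring, loess correction, repeated quantile normalization, means over probe sets and the filter at the array median, with ranges from -1.76 to -1.68 for CHAC1 and from -1.42 to -1.36 for DDIT3. With loess correction or repeated quantile normalization PPP1R15A joined them (-1.02 and -1.01). At 3-fold, 1 of the 10 genes, CHAC1, was lower in this contrast (0.0054% of all genes). At the same limit 0 were higher in 8R- than in parental cells (0.483% of all genes). At 1.5-fold, 4 were lower in 8R+ than in parental cells (7.19% of all genes). That comparison's median was -0.35 with means over probe sets and -0.32 with the other ATF4 probe set, against -0.47. Both values follow from the ATF4 probe sets, since among the 10 genes ATF4 alone had another value in that comparison under these settings. At 1.5-fold, 1.08% of all genes were lower in 8R+ than in 8R-. By list they were 2 of 11 bZIP partners, 2 of 10 synthesis enzymes, 5 of 10 transporters and 5 of 12 tRNA synthetases. They were also 8 of 16 other targets, 2 of 16 genes of the ATF6 and XBP1 branch and 1 of 14 immediate early genes. Of the hypoxia genes 1 of 14 was lower, and of the p53 targets 5 of 14. With loess correction 1 immediate early gene, EGR1, was past 2-fold. Over all genes, 529 were higher and 198 lower in 8R+ than in 8R- at 1.5-fold, and 13 and 1 at 3-fold, against 97 and 21 at 2-fold. Against parental cells the numbers at 1.5-fold were 804 and 1628 in 8R- and 1066 and 1324 in 8R+, and at 3-fold 89 and 180, and 135 and 153. No value past 2-fold among the 10 genes turned its direction under these alternatives, which were not run gene by gene for other genes. No paired analysis was possible because each condition has 1 array. ATF3 lies near the array median, STC2 below it in 8R+ (6.58) and VLDLR below it on all arrays, where background limits what a difference can show.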

Other observations

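Of the 21 genes at least 2-fold lower in 8R+ than in 8R-, 13 are in none of the lists. PCK2, the mitochondrial phosphoenolpyruvate carboxykinase, had levels of 9.91 in parental cells, 10.19 in 8R- and 9.16 in 8R+. NIBAN1, a stress-responsive protein, had 9.83, 9.55 and 8.52, and HBEGF, a ligand of the EGF receptor, 9.10, 9.29 and 8.07. For these 3 genes, as for CHAC1 and NUPR1, 8R+ was the low array, and 8R- differed from parental cells by less than 2-fold. SLFN5 (8.88, 9.99 and 8.77) and SNHG17 (9.30, 10.34 and 9.24), a small nucleolar RNA host gene, were high in 8R- alone, as DDIT3 was. THUMPD3-AS1, the 4th lowest gene, lay below the array median on all arrays (5.09, 6.09 and 4.67).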
